A study of Mus musculus with 2 samples.

Results

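Neutrophils of mouse brown adipose tissue (BAT) were examined as 470 barcodes among the 4295 kept from 2 single-cell RNA libraries of sorted CD45+ cells. A barcode, the tag of 1 droplet, was kept when 200 or more genes were detected in it and when mitochondrial transcripts did not exceed 10% of its total. A kept barcode was taken as a neutrophil when *S100a8* and *S100a9* together made up at least 2% of its unique molecular identifiers (UMIs, each standing for 1 captured transcript), when it held at least 1 UMI of *Retnlg*, *Cxcr2* or *Wfdc21*, and when it held none of *Cd3e* or *Cd79a*. Both libraries came from male mice on the C57Bl/6 background carrying floxed ATGL alleles (ATGLfl/fl; the gene is *Pnpla2*, and ATGL is the lipase that begins triglyceride breakdown) and the AdipoQ-CreERT2 transgene. The Adipo delta/delta mice had received tamoxifen (10 mg/ml in oil with 10% ethanol, 200 µL per injection, every 2 days for 1 week, then 2 weeks of rest), which lets the Cre delete ATGL. The control mice, of the same genotype, had received the vehicle, so that the deletion and tamoxifen itself cannot be told apart. The Cre is driven by the promoter of adiponectin, a gene of adipocytes, so the deletion was aimed at adipocytes and not at the leukocytes that were sequenced. The mice were 16 weeks old by their labels and younger by the text of the study, and the number of mice behind each library was not given in the sources used here. There was 1 library per condition, so no difference between the conditions has a replicate check or a p-value, and every interval below is a 95% interval for counting error only.

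Neutrophils are short-lived phagocytes that are made in the bone marrow, circulate in blood and enter tissues along chemokine gradients read by receptors such as CXCR2. During maturation they fill primary, specific and gelatinase granules in turn, and the transcripts of most granule proteins have fallen by the time the cells leave the marrow. Mature cells instead carry transcripts for calprotectin (*S100a8*, *S100a9*), cytokine receptors and inflammatory mediators, and they respond to interferons and to signals through NF-kB.

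In the control library 306 of 2279 kept barcodes were neutrophils, or 13.4% (12.1 to 14.9), and in the Adipo delta/delta library 164 of 2016, or 8.13% (6.98 to 9.41, Clopper-Pearson intervals). The ratio of these shares was 0.606 (0.498 to 0.735, conditional binomial interval). Its direction depended on the mitochondrial limit: with a limit of 2%, the one stated in the study's methods, 170 of 1306 control and 135 of 889 Adipo delta/delta barcodes were neutrophils, and the ratio was 1.17 (0.924 to 1.47). At the limit of 10%, with other barcodes rich in *C1qa*, *C1qb* and *C1qc* left out of the denominator, the shares were 14.1% and 10.0%. Their ratio was then 0.713 (0.586 to 0.865), so the ratio also depended on which other cells were counted. The libraries as deposited hold 2597 and 2381 barcodes. In both libraries the limit of 2% left fewer barcodes than the cell numbers given with those methods, and the limit of 10% left numbers nearer to them, so the ratio at 2% is not known to be that of the study's own cells. The median mitochondrial share was 1.65% in control and 0.381% in Adipo delta/delta neutrophils, while in the other kept barcodes it was 1.67% and 2.49%. Of the neutrophils, 44.4% in the control and 17.7% in the Adipo delta/delta library lay above 2%. The plot of mitochondrial shares shows this gap for the neutrophils and a gap the other way for the other barcodes.

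**Figure D1:**
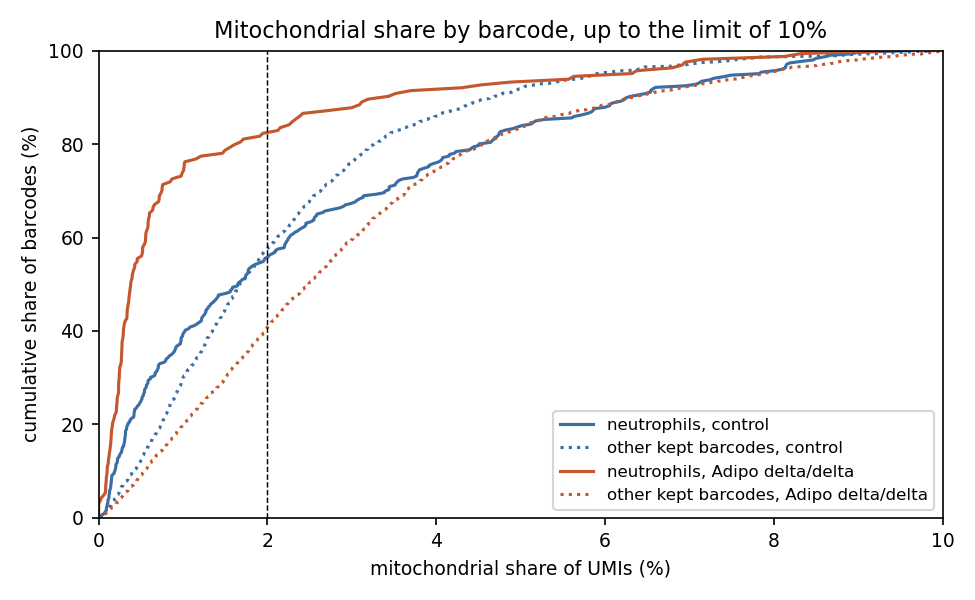
Cumulative share of barcodes (%, vertical axis) by mitochondrial share of UMIs (%, horizontal axis) for neutrophils (solid lines) and other kept barcodes (dotted lines) of the control (blue) and Adipo delta/delta (orange) libraries, with a limit of 2% dashed. The Adipo delta/delta neutrophils lie to the left, with a median of 0.381% against 1.65% in the control.

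The barcodes around the threshold were few. Of the barcodes past 2% *S100a8* and *S100a9*, 310 in the control and 168 in the Adipo delta/delta library, 1 and 0 lacked all of *Retnlg*, *Cxcr2* and *Wfdc21*, and 3 and 4 held *Cd3e* or *Cd79a*. Just inside the threshold, at 2 to 3%, lay 8 control and 4 Adipo delta/delta neutrophils, and just outside, at 1 to 2%, lay 7 and 5 barcodes, all of which held a UMI of *Retnlg*, *Cxcr2* or *Wfdc21*. The barcodes outside read 3354 and 4195 CPM of *Csf3r*, the receptor for granulocyte colony-stimulating factor, and those inside 3047 and 3507 CPM, where CPM is the summed UMIs of a group scaled to a total of 1000000. *Cd74*, a gene of antigen-presenting cells, read 152 and 381 CPM outside and 9050.2 and 0 CPM just inside. At 3 to 5% it read 0 CPM in 9 control and 3699.7 CPM in 15 Adipo delta/delta barcodes, and at 5% and over 59.6 and 219 CPM, so some barcodes near the threshold carried transcripts of other cell types. The scatter of *S100a8* and *S100a9* share against depth shows both libraries split into an upper and a lower group. The share had a median of 19.2% in control and 14.6% in Adipo delta/delta neutrophils. Neutrophils held a median of 2999 and 2707.5 UMIs per barcode, with ranges of 559 to 22169 and 518 to 9618, and a median of 989 and 1028.5 detected genes. The libraries shared 4 barcodes, none of them a neutrophil.

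**Figure D2:**
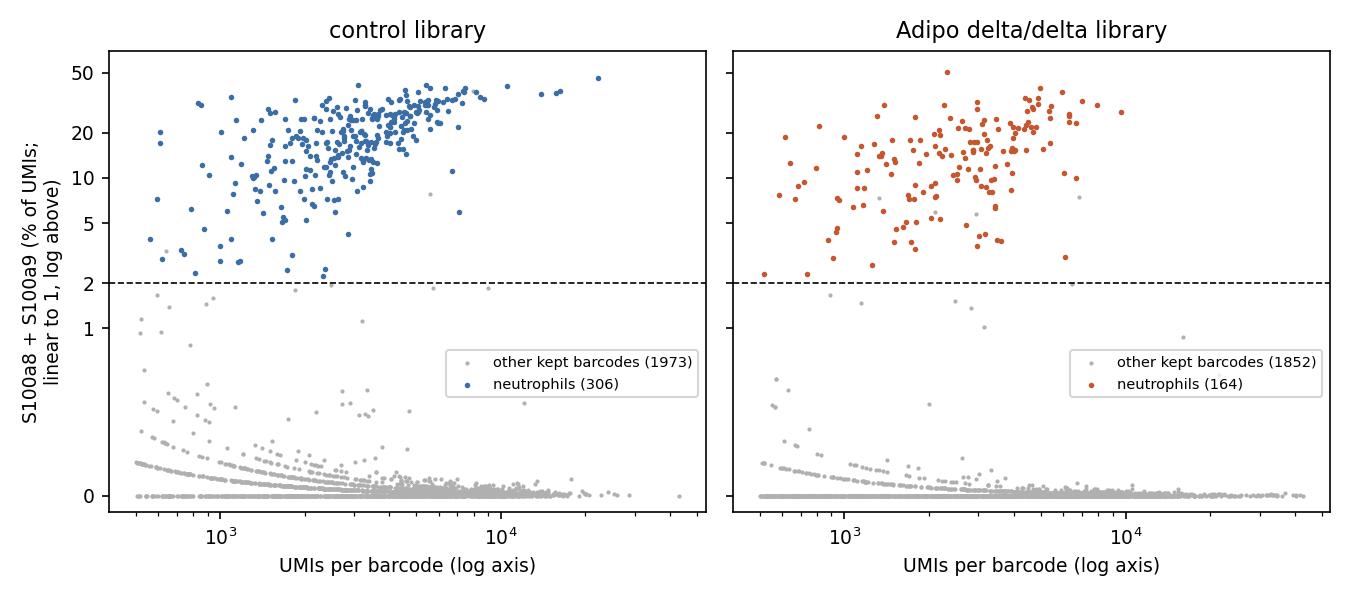
Combined share of S100a8 and S100a9 in the UMIs of each kept barcode (%, linear up to 1 and logarithmic above) against its UMIs (logarithmic axis) in the control and the Adipo delta/delta library, with the dashed line at 2%. The 306 and 164 neutrophils (colored) lie above the line, and grey points above it are barcodes that failed another step.

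The label was checked against 10 neutrophil genes that did not enter the rule. All 10 were at least 2-fold higher in neutrophils than in the other kept barcodes, in both libraries, where 30.7% of the 2845 genes with at least 50 neutrophil UMIs were so in the control and 37.1% in the Adipo delta/delta library. The members were chosen on these same barcodes, so this is a description and not a test. *Csf3r* read 2085 and 3019 CPM in control and Adipo delta/delta neutrophils, against 52.7 and 38.4 CPM in the other barcodes. *Mmp9*, which encodes gelatinase B, read 1997 and 1932 CPM, against 18.0 and 19.7 CPM. *Hdc*, the enzyme that makes histamine, read 1257 and 2742 CPM, against 5.77 and 5.44 CPM. *Ly6g*, the surface antigen by which mouse neutrophils are usually gated, was sparse but nearly absent elsewhere, with 316 and 70 UMIs in neutrophils (a ratio of 0.490, and of 0.701 without the granule-rich barcodes described below) and 1.24 and 0.369 CPM in the other barcodes. Among the genes with the largest excess over the other barcodes were also *Il1f9*, a cytokine of the IL-1 family, at 408 and 600.3 CPM, *Chil1*, a chitinase-like protein, at 266 and 226 CPM, and *Asprv1*, a protease, at 215 and 178 CPM. The stefins *Stfa2l1* and *Cstdc4* read 1157 and 1425 CPM and 1493 and 1486 CPM, and as near-identical copies their counts may be split among family members.

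Among the 10 genes with the most UMIs were *S100a8* and *S100a9*, at 116478 and 121339 CPM in the control library. UMIs count 3′ ends of transcripts, so levels were not divided by transcript length. *S100a6* and *S100a11*, further calcium-binding proteins, read 10162 and 9770.4 CPM and 6637 and 6699 CPM. *Il1b*, the gene of interleukin-1β, read 5812 CPM in the control, against 68.7 CPM in the classical monocytes of that library, and it was found in 294 of 306 neutrophils. The neutrophils were poor in ribosomal protein transcripts, which made up 3.07% and 3.86% of their UMIs and 24.5% and 21.5% of those of the other barcodes.

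Transcripts of other cell types were also read in the neutrophils. Of the B cell markers, *Cd79a* is absent by the rule, and *Cd79b* and *Ms4a1* numbered 3 UMIs in the control and 0 in the Adipo delta/delta neutrophils. *Cd3e*, of the T cell markers, is absent by the rule as well, and the T cell markers numbered 18 and 12 UMIs. NK cell markers numbered 23 and 5 UMIs. The 2 erythroid markers, *Hbb-bs* and *Hba-a1*, numbered 32 UMIs in 31 control and 3 UMIs in 3 Adipo delta/delta neutrophils. In the other kept barcodes they read 850 and 7.10 CPM. The libraries thus differed widely in hemoglobin transcripts, and the cause was not tested. Mast cell or basophil markers numbered 0 and 2 UMIs, eosinophil markers 7 and 16 and adipocyte markers 2 and 1, with *Adipoq*, *Cidea* and *Ucp1* at 0 in both libraries. Markers of phagocytes were more frequent: the 6 classical monocyte markers summed to 347 and 448 CPM, against 2182 and 1933 CPM in the other barcodes. The 6 macrophage markers summed to 314 and 376 CPM, against 1022 and 3098, and the 4 dendritic cell markers to 213 and 738 CPM, against 4379 and 9967. Over all 38 such markers, 77 of 306 control and 78 of 164 Adipo delta/delta neutrophils held 3 or more UMIs. No doublet caller was run, and the part of these transcripts in the results below was not tested beyond the recounts without such barcodes that are given beside them.

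To compare the libraries, the UMIs of all neutrophils were summed, 1045466 in the control and 473060 in the Adipo delta/delta library, and each gene's CPM in Adipo delta/delta was divided by that in the control. Of 2845 genes with at least 50 UMIs, 120 (4.22%) were at least 2-fold higher and 38 (1.34%) at least 2-fold lower in Adipo delta/delta neutrophils. The median log2 ratio over these genes was 0.26 and not 0. *S100a8* and *S100a9* made up 23.8% of the neutrophil UMIs in the control and 17.9% in the Adipo delta/delta library. The balance between both directions turned with the scaling: with the median set to 0, 54 genes were higher and 67 lower, and leaving the genes of the rule, mitochondrial, ribosomal protein and ribosomal RNA features out of the totals gave 62 and 64. Ratios below use the total and are to be read against the median of 0.26. *Pnpla2* (ENSMUSG00000025509, chromosome 7, 141455198 to 141460743), the targeted gene, cannot check the genotype here, because the deletion was aimed at adipocytes. Its level in neutrophils was 49.7 CPM (37.1 to 65.2) in the control and 120.5 CPM (91.3 to 156) in the Adipo delta/delta library, from 52 and 57 UMIs.

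**Figure D3:**
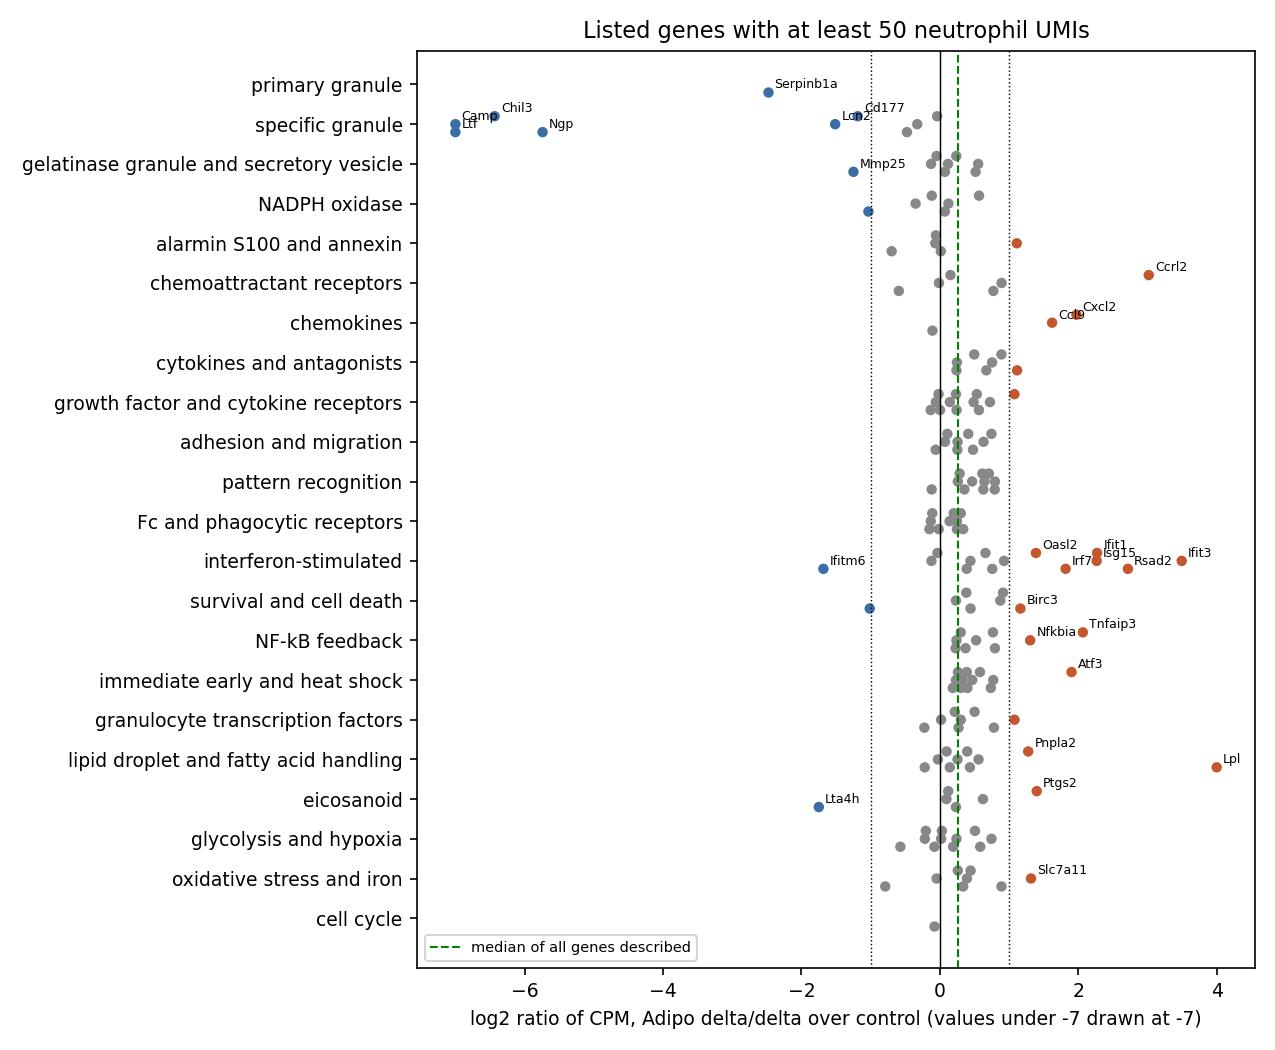
Log2 ratio of CPM, Adipo delta/delta over control, in neutrophils for each listed gene with at least 50 UMIs (points, 1 row per list; orange at least 2-fold higher, blue at least 2-fold lower, grey between, dotted lines at 2-fold, values under -7 drawn at -7). The green dashed line is the median of 0.26 over all 2845 genes, and the specific granule genes reach far to the left and the interferon-stimulated genes to the right.

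The 4 lowest ratios were those of specific granule genes, which encode proteins packed during the myelocyte stage. Of 10 listed, 9 had at least 50 UMIs, and 6 were at least 2-fold lower in the Adipo delta/delta library, beside 1.34% of all genes. None was higher, and the median log2 ratio was -1.51. *Ltf* (lactoferrin; ENSMUSG00000032496, chromosome 9, 111019271 to 111042767) read 737 CPM (686 to 791) in the control and 0 of 473060 UMIs in the Adipo delta/delta library, or at least 116-fold lower against a floor of 3 counts over the group. *Camp* (the antimicrobial peptide cathelicidin; ENSMUSG00000038357, chromosome 9, 109847379 to 109849617) had 3193 and 2 UMIs, a ratio of 0.0014 (0.00017 to 0.0050). *Ngp* (neutrophilic granule protein; ENSMUSG00000032484, chromosome 9, 110419747 to 110423012) had 3190 and 27 UMIs, a ratio of 0.019 (0.012 to 0.027). *Chil3*, a chitinase-like protein that classical monocytes also express, had 382 and 2 UMIs. *Lcn2* (lipocalin 2, which binds bacterial siderophores; ENSMUSG00000026822, chromosome 2, 32384633 to 32388252) read 3831 CPM (3713 to 3951) in the control and 1342 CPM (1239.9 to 1451) in the Adipo delta/delta library, a ratio of 0.350 (0.322 to 0.381). *Cd177*, a surface glycoprotein, read 135 and 59.2 CPM. The collagenase *Mmp8* (846 and 674 CPM), lysozyme *Lyz2* (3389 and 2437 CPM) and haptoglobin *Hp* (1723 and 1676 CPM) lay within 2-fold.

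These sums rested on few cells. In the control library 6 of 306 neutrophils held at least 100 UMIs of *Ltf*, *Camp* and *Ngp* together, namely 2017, 1940, 1590, 1058, 313 and 147, and they carried 98.8% of all 7154 such UMIs. They made up 1.96% (0.723 to 4.22) of control neutrophils. No Adipo delta/delta neutrophil reached that level, the highest holding 8 UMIs. For 0 of 164 the Clopper-Pearson upper limit was 2.22%, and a count of 3 would be 1.83%. The control share lay below the former, so this number of cells cannot tell a share like that of the control from none. A seventh and an eighth control barcode held 20 and 10 UMIs, and 298 others at most 4. The plot of these UMIs by rank shows the step after the sixth control barcode. The 6 barcodes were otherwise unlike the rest: none held *Il1b*, and their *Csf3r* ranged from 0 to 4, *Cxcr2* from 0 to 2 and *Retnlg* from 1 to 25 UMIs, although 4 of them were the deepest, with 13933 to 22169 UMIs. In the order above they held 10, 14, 27, 17, 5 and 0 UMIs of other cell types' markers. Recounts without barcodes holding 3 or more of those markers' UMIs thus leave out all but the last. The 8 barcodes with 5 or more UMIs of *Ltf*, *Camp* and *Ngp* held 34 of the 43 control UMIs of *Cebpe*, the transcription factor needed for specific granules, 63.6% of those of *Anxa3* and 35.8% of those of *Ly6g*, and *Cebpe* and *Anxa3* were chosen after their values were seen. They held no UMI of the proliferation gene *Mki67* or of the primary granule genes *Elane* and *Mpo*, which precede specific granules. Over all neutrophils, *Mpo*, *Elane* and *Ctsg* were at 0 in both libraries.

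**Figure D4:**
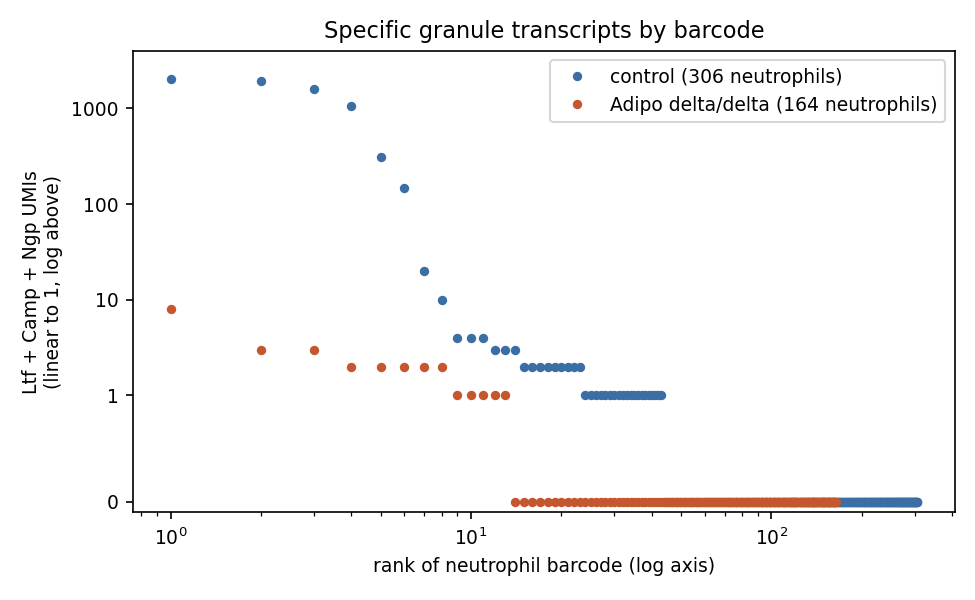
Summed UMIs of Ltf, Camp and Ngp in each neutrophil (linear up to 1, logarithmic above), ranked from the highest (logarithmic axis), for 306 control (blue) and 164 Adipo delta/delta (orange) neutrophils. After 6 control barcodes with 147 to 2017 UMIs the values drop to 20, and the highest Adipo delta/delta value is 8.

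Without the barcodes holding 5 or more of these UMIs, 8 in the control and 1 in the Adipo delta/delta library, none of the 9 specific granule genes was 2-fold lower, and their median log2 ratio was -0.27. *Lcn2* then had a ratio of 0.567 and *Ngp* of 0.666, while *Camp*, with 1 and 2 UMIs left, no longer had a readable ratio. Over all 2845 genes the same step left 107 (3.76%) higher and 28 (0.984%) lower. *Lcn2* was broadly present: after thinning each barcode to 500 UMIs, 48.7% (43.0 to 54.4) of control and 29.9% (23.0 to 37.5) of Adipo delta/delta neutrophils held a UMI. At that depth *Lcn2* was found in 0.760% and 1% of the B cells of the libraries, a cell type that should lack it. B cells held a median of 1884 and 2396 UMIs per barcode before thinning. *Serpinb1a*, a protease inhibitor listed with the primary granule genes (62 and 5 UMIs), and *Cybb*, a subunit of the NADPH oxidase (217 and 48 UMIs), were at least 2-fold lower with the granule barcodes. Without these barcodes their ratios were 1.27 and 1.21.

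Genes of the oxidase and of gelatinase granules were mostly within 2-fold, where 4.22% of all genes were at least 2-fold higher and 1.34% lower. Of the 6 NADPH oxidase genes, *Cybb* alone was past 2-fold, and *Cyba*, *Ncf1*, *Ncf4* and *Rac2* had ratios of 1.09, 0.922, 0.784 and 1.05, with a median log2 ratio of -0.02 over the list. Of 8 gelatinase granule and secretory vesicle genes with enough UMIs, *Mmp25*, a membrane-bound protease, was 2-fold lower, at 100.4 and 42.3 CPM, and it stayed so without the granule barcodes (0.452; past 2-fold under 12 of 13 alternatives, highest 0.560), whereas *Mmp9* had a ratio of 0.967 and *Itgam*, the integrin CD11b, of 1.05. The calcium-binding *S100a4* was higher (45 and 44 UMIs; past 2-fold under 6 of 13 alternatives, lowest 1.75) among genes of that family and the annexins, and *Anxa1*, an annexin with anti-inflammatory roles, read 1076 and 664 CPM.

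A part of the interferon-stimulated genes was higher in the Adipo delta/delta neutrophils. Of 17 listed, 14 had at least 50 UMIs, and 6 were at least 2-fold higher, beside 4.22% of all genes, 1 was 2-fold lower, and the median log2 ratio was 0.84. The counts of 6 and 1 were the same without the granule barcodes. *Isg15* (a ubiquitin-like modifier; ENSMUSG00000035692, chromosome 4, 156199424 to 156200818) read 103 CPM (84.7 to 125) in the control and 497 CPM (435 to 565) in the Adipo delta/delta library, a ratio of 4.81 (3.81 to 6.10). *Rsad2* (viperin, an antiviral enzyme; ENSMUSG00000020641, chromosome 12, 26442746 to 26456452) read 78.4 CPM (62.4 to 97.4) in the control and 516 CPM (453 to 585) in the Adipo delta/delta library, a ratio of 6.58 (5.10 to 8.55). *Ifit1* (ENSMUSG00000034459, chromosome 19, 34640871 to 34650009), whose product binds foreign RNA, read 36.3 and 175 CPM, and its neighbor *Ifit3* (ENSMUSG00000074896, chromosome 19, 34583531 to 34588731) had 10 and 51 UMIs. *Oasl2*, a relative of the enzymes that sense double-stranded RNA, read 197 CPM (171 to 226) in the control and 516 CPM (453 to 585) in the Adipo delta/delta library, a ratio of 2.62 (2.17 to 3.17). *Irf7*, a transcription factor of the interferon response, had 37 and 59 UMIs, a ratio of 3.52 (2.30 to 5.47). All 6 kept a ratio over 2 under each of 13 alternatives on barcodes, scaling and averaging, the lowest being 2.19 for *Oasl2*.

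Other genes of the list did not go that way. *Ifitm6* was lower, at 848 and 264 CPM, with a ratio of 0.311, and of 0.484 without the granule barcodes, which held 42.3% of its control UMIs. The abundant *Ifitm1* (3323 and 3243 CPM), *Ifitm2* (2288 and 2103 CPM) and *Ifitm3* (1122 and 1524 CPM), membrane proteins that hinder viral entry, lay within 2-fold. Outside the list, *Slfn5* (48.8 and 302 CPM) and *Ifi27l2a* (481 and 1909 CPM), both known to respond to interferon, were among the 12 genes with the highest ratios. In the classical monocytes, 388 control and 130 Adipo delta/delta barcodes, *Isg15* read 134 and 270.4 CPM, *Rsad2* 30.5 and 80.1 and *Oasl2* 73.9 and 149, ratios of 2.02, 2.63 and 2.02. These genes were thus higher in the monocytes of the same library as well, and whether the neutrophil ratios differ from the monocyte ones was not tested. In all other kept barcodes together the ratios of *Isg15*, *Rsad2* and *Oasl2* were 1.05, 1.45 and 1.08.

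The promoters of the 4 listed genes with the highest ratios are shown because interferon acts through a short element that many, but not all, such genes carry near their start. The sequences, from 250 bases before to 50 bases after the start of the gene, are RefSeq's on build GRCm38.p6, written 5′ to 3′ on the strand of the gene. Capitals mark matches to GAAA, any 2 bases and GAAA again, or on the opposite strand TTTC, any 2 bases and TTTC, the core of the interferon-stimulated response element, searched on both strands with overlapping matches counted. The windows are chr4:156200769-156201068 (minus strand) for *Isg15*, chr12:26456403-26456702 (minus strand) for *Rsad2*, chr19:34640639-34640938 (plus strand) for *Ifit1* and chr19:34583279-34583578 (plus strand) for *Ifit3*.
Isg15: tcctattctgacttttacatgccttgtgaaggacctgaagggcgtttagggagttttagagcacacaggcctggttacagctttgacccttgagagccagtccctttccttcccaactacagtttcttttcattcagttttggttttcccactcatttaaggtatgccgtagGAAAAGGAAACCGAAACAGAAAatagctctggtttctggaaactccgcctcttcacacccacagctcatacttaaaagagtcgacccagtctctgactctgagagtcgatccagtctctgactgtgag
Rsad2: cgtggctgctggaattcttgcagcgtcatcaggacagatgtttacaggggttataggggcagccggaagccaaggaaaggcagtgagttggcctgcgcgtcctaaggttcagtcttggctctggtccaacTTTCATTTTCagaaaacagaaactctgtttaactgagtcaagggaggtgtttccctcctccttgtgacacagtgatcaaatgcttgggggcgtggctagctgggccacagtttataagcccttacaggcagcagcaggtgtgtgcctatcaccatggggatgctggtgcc
Ifit1: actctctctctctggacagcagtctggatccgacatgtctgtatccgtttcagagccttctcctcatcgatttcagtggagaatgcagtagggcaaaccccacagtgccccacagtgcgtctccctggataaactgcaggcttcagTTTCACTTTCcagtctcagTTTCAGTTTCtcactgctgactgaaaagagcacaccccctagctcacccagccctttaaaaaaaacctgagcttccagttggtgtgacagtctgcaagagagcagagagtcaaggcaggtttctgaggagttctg
Ifit3: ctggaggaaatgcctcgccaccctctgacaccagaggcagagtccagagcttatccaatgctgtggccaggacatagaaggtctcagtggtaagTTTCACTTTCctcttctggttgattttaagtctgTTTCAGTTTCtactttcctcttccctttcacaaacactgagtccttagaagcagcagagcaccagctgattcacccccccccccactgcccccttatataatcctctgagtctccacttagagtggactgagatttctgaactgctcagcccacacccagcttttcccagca
*Isg15* held 3 overlapping matches, *Rsad2* 1, and *Ifit1* and *Ifit3* 2 each, while 3.44% of 32851 RefSeq promoters of this length held at least 1. The windows of *Oasl2* and *Irf7* held none. Of the 7 other listed genes with enough UMIs and a promoter in the table, 3 held a match (*Ifitm2*, *Ifitm3* and *Gbp2*), although they lay within 2-fold. A match describes the letters and not the binding of a factor.

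*Cxcl2*, *Ptgs2* and *Nfkbia* were also past 2-fold. *Cxcl2* (a chemokine that attracts neutrophils through CXCR2; ENSMUSG00000058427, chromosome 5, 90903871 to 90905938) read 401 CPM (363 to 441) in the control and 1575 CPM (1464 to 1692) in the Adipo delta/delta library, a ratio of 3.93 (3.48 to 4.44). *Ptgs2* (cyclooxygenase 2, which makes prostaglandin precursors; ENSMUSG00000032487, chromosome 1, 150100031 to 150108227) read 286 CPM (254 to 320.3) in the control and 755 CPM (678 to 837) in the Adipo delta/delta library, a ratio of 2.64 (2.26 to 3.09), and of 1.87 without the barcodes that held 3 or more UMIs of other cell types. *Nfkbia* (the inhibitor IκBα, itself an NF-kB target; ENSMUSG00000021025, chromosome 12, 55489410 to 55492647) read 332 CPM (298 to 369) in the control and 820.2 CPM (741 to 906) in the Adipo delta/delta library, a ratio of 2.47 (2.13 to 2.86). *Cxcl2* and *Nfkbia* stayed past 2-fold under each of the 13 alternatives, with lowest ratios of 2.96 and 2.07. *Cxcl2* and *Ptgs2* were scarce in the monocytes and *Nfkbia* was not: classical monocytes read 7.45 and 1.00 CPM of *Cxcl2* and 0.324 and 0 CPM of *Ptgs2*, but 292 and 220.3 CPM of *Nfkbia*. *Il1b* (ENSMUSG00000027398, chromosome 2, 129364570 to 129371139), which was found in nearly every neutrophil, read 5812 CPM (5667 to 5959.8) in the control and 9255 CPM (8983 to 9533) in the Adipo delta/delta library, a ratio of 1.59 (1.53 to 1.66) that stayed between 1.33 and 1.66 under the 13 alternatives.

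By list, 2 of 3 described chemokines were at least 2-fold higher (*Cxcl2* and *Ccl9*, the latter from 28 and 39 UMIs). Over all genes 4.22% were at least 2-fold higher and 1.34% lower. *Ccl6* was not past 2-fold, at 2251 and 2091 CPM. *Ccl9* had a ratio of 1.23 without the barcodes holding other cell types' UMIs. Of 7 cytokines and antagonists, *Csf1*, the macrophage growth factor, was past 2-fold (52 and 51 UMIs), but not without the granule barcodes (1.99; past 2-fold under 6 of 13 alternatives, lowest 1.68). All 7 had ratios over 1, as had 75.6% of the 2845 genes, among them the antagonist *Il1rn* (158 and 266 CPM) and oncostatin M, *Osm* (495 and 588 CPM). Of 9 NF-kB feedback genes, *Nfkbia* and *Tnfaip3* (19 and 36 UMIs), a brake on NF-kB, were at least 2-fold higher, beside the same 4.22% of all genes. The median log2 ratio of the list was 0.52. *Zfp36*, which destabilizes cytokine mRNAs, and *Tnfaip2* read 2207 and 2583 CPM and 1048 and 1507 CPM. The eicosanoid list had *Ptgs2* higher and *Lta4h*, the enzyme of leukotriene B4 synthesis, lower (52 and 7 UMIs, ratio 0.298), but *Lta4h* stood at 1.07 without the barcodes holding other cell types' UMIs. *Alox5ap*, the partner of 5-lipoxygenase, read 1668 and 1782 CPM.

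The promoter of *Cxcl2* (chr5:90903649-90903948, plus strand, GRCm38.p6, from RefSeq) is shown for its matches to the NF-kB element, here GGG, any 2 bases and TTTCC, or its reverse GGAAA, any 2 bases and CCC, on both strands and with overlaps counted, in capitals.
Cxcl2: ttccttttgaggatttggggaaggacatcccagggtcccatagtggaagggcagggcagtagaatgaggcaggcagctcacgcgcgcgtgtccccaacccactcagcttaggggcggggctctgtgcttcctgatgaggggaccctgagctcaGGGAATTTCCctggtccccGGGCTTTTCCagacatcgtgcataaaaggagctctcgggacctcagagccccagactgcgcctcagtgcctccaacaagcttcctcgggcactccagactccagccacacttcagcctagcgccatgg
It held 2 matches, and 1.63% of the 32851 promoters held at least 1. That of *Nfkbia* held 1, and those of *Ptgs2* and *Il1b* held none in this window.

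**Figure D5:**
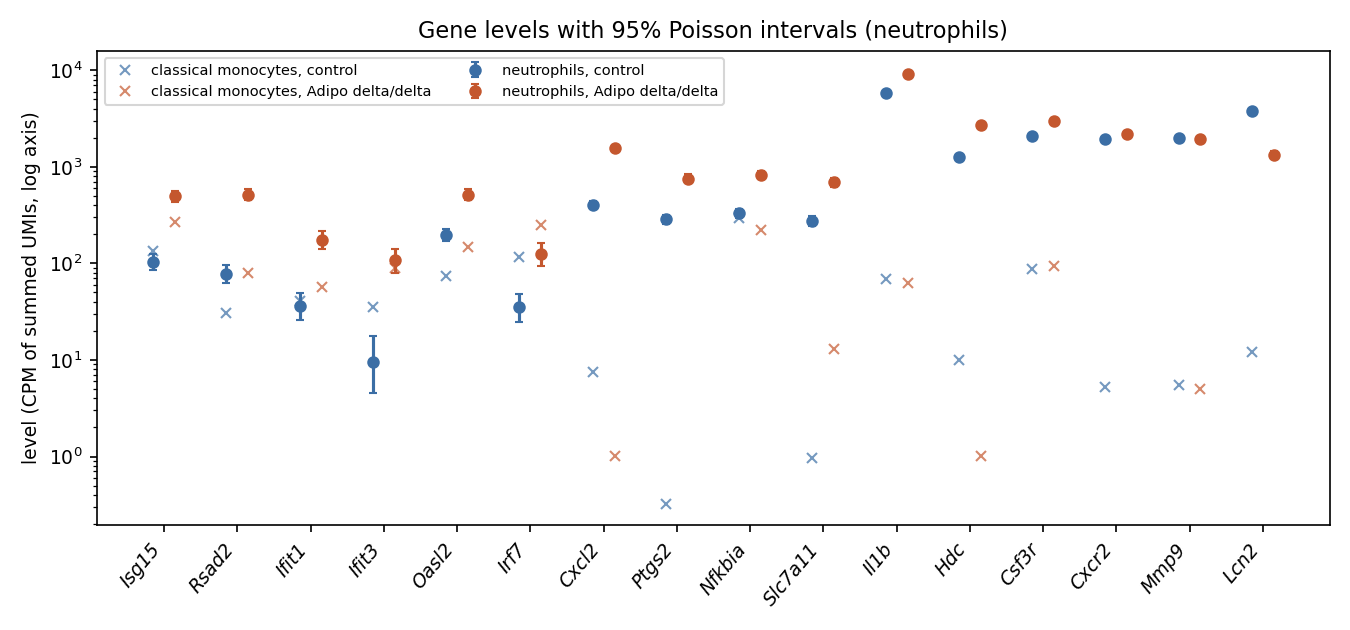
Level (CPM of summed UMIs, logarithmic axis) of 16 genes in control (blue) and Adipo delta/delta (orange) neutrophils (circles, with 95% Poisson intervals) and classical monocytes (crosses, not drawn where no UMI was found). At the left are the 6 interferon-stimulated genes that were past 2-fold. They and Cxcl2, Ptgs2, Nfkbia, Slc7a11 and Hdc lie higher in Adipo delta/delta neutrophils, and Lcn2 lies lower.

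At 500 UMIs per barcode, at least 1 UMI of *Rsad2*, *Isg15*, *Ifit1*, *Ifit3*, *Oasl2* or *Irf7* was found in 17.6% (13.5 to 22.4) of control and 43.9% (36.2 to 51.9) of Adipo delta/delta neutrophils, a ratio of 2.49 (1.72 to 3.61), and in 1.52% and 5% of B cells. The unthinned shares were 46.7% and 79.3%, at the median depths of 2999 and 2707.5 UMIs. The 31 control barcodes with the most of these UMIs held 60.1% of them, and the 17 of the Adipo delta/delta library held 53.8%. *Cxcl2* and *Ptgs2* were concentrated in a like way: the same numbers of barcodes held 67.7% and 56.8% of their UMIs, and the median barcode held 0 in the control and 2 in the Adipo delta/delta library. For *Cxcl2* alone the thinned shares were 11.1% (7.82 to 15.2) of control and 25.6% (19.1 to 33.0) of Adipo delta/delta neutrophils. For *Ptgs2* they were 10.5% (7.26 to 14.4) of control and 23.8% (17.5 to 31.0) of Adipo delta/delta neutrophils. Of the B cells, 0 of 263 and 0 of 100 held either, with Clopper-Pearson upper limits of 1.39% and 3.62%. *Il1b* was found in 88.6% (84.5 to 91.9) of control and 96.3% (92.2 to 98.6) of Adipo delta/delta neutrophils and in 1.52% and 2% of B cells. Among Adipo delta/delta neutrophils with an interferon-stimulated UMI at this depth, 30 of 72 (41.7%) also held *Cxcl2* or *Ptgs2*, and among those without one 38 of 92 (41.3%). In the control these were 13 of 54 (24.1%) and 46 of 252 (18.3%). The 6 interferon-stimulated genes, *Cxcl2* and *Ptgs2* were all past 2-fold higher in these same libraries, and the other interferon-stimulated genes were left out. Their higher shares in Adipo delta/delta neutrophils were thus largely set by that choice and lend no further support to a difference. All shares here are descriptions of single libraries, and their differences were not tested.

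Most receptors lay within 2-fold, where 4.22% of all genes were at least 2-fold higher and 1.34% lower. Of 6 chemoattractant receptors described, *Ccrl2*, which binds chemerin, was past 2-fold with 15 and 55 UMIs, a ratio of 8.10 (4.51 to 15.4), from 10 and 20 barcodes. *Cxcr4*, the receptor that holds neutrophils in the marrow and rises as they age, had 386 and 324 UMIs, a ratio of 1.86 (1.60 to 2.16). At 500 UMIs *Cxcr4* was found in 17.6% (13.5 to 22.4) of control and 28.7% (21.9 to 36.2) of Adipo delta/delta neutrophils, and in 2.28% and 10% of B cells, which express it. *Cxcr2* and *Ccr1* read 1953 and 2198 CPM and 753 and 837 CPM, and the complement receptor *C5ar1* 427 and 423 CPM. Of 12 cytokine receptors, *Il1r2*, the decoy receptor for interleukin-1, was past 2-fold at 148 and 313 CPM, a ratio of 2.11 (1.67 to 2.66), but of 1.98 without the granule barcodes (past 2-fold under 7 of 13 alternatives, lowest 1.77). *Csf3r* had a ratio of 1.45 (1.35 to 1.55). *Il17ra* and *Csf2rb* lay within 2-fold (419.9 and 414 CPM and 419 and 463 CPM). None of 9 adhesion genes, 11 pattern recognition genes or 10 Fc and phagocytic receptors was past 2-fold, with median log2 ratios of 0.26, 0.61 and 0.17. Among them were the hyaluronan receptor *Cd44* (996 and 1323 CPM), the C-type lectin *Clec4e* (462 and 755 CPM), the peptidoglycan-binding *Pglyrp1* (1852 and 1706 CPM) and the adaptors *Tyrobp* (4689 and 5562 CPM) and *Fcer1g* (1983 and 2186 CPM). *Hdc* read 1257 CPM (1189.8 to 1327) in the control and 2742 CPM (2595 to 2895) in the Adipo delta/delta library, a ratio of 2.18 (2.02 to 2.36) (past 2-fold under 10 of 13 alternatives, lowest 1.83), and at 500 UMIs was found in 46.7% (41.0 to 52.5) of control and 69.5% (61.9 to 76.5) of Adipo delta/delta neutrophils and in 0 of 263 and 1 of 100 B cells.

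Most transcription factors and stress genes lay within 2-fold, beside 4.22% of all genes at least 2-fold higher and 1.34% lower. Of 8 granulocyte factors, *Nfil3* was past 2-fold (68 and 65 UMIs), but not without the granule barcodes (1.97; past 2-fold under 6 of 13 alternatives, lowest 1.50), and *Cebpb*, *Spi1* and *Klf2* read 1366 and 1934 CPM, 889.6 and 1097 CPM and 2368 and 2027 CPM. Of 12 immediate early and heat shock genes, which also respond to tissue digestion, *Atf3* was past 2-fold (39 and 66 UMIs), and the median log2 ratio was 0.39, or 0.28 without the granule barcodes, where that over all genes was 0.22. All 12 had ratios over 1, as had 75.6% of the 2845 genes. *Junb*, *Dusp1* and *Fos*, all transcribed within minutes of a stimulus, read 3894 and 5097 CPM, 3245 and 4489.9 CPM and 2826 and 3725 CPM. *Ppp1r15a*, which ends the block on translation under stress, had 35 and 65 UMIs. Among oxidative stress and iron genes *Slc7a11*, the cystine importer, was higher, at 277 CPM (246 to 311) in the control and 691 CPM (618 to 770.4) in the Adipo delta/delta library, a ratio of 2.49 (2.12 to 2.93). The ferritins *Fth1* and *Ftl1* read 3633 and 4765 CPM and 2984 and 4061 CPM. Of 7 survival and death genes, *Birc3* was higher (72 and 73 UMIs; past 2-fold under 10 of 13 alternatives, lowest 1.88) and *Casp1* lower (58 and 13 UMIs; past 2-fold under 8 of 13 alternatives, highest 0.639), and *Mcl1*, on which neutrophil survival depends, read 2048 and 2668 CPM. None of 11 glycolysis and hypoxia genes was past 2-fold (median log2 ratio 0.03), the lowest ratio being 0.673 for *Gapdh*. Of 8 cell cycle genes only *Hmgb2*, which nondividing cells also express, had 50 UMIs (1633 and 1535 CPM), and *Mki67* had 1 and 0 UMIs.

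Genes of lipid handling bear on the deletion, which was aimed at lipolysis in adipocytes. Of 22 listed, 10 had at least 50 UMIs, and 2 were at least 2-fold higher (*Pnpla2* and *Lpl*), beside 4.22% of all genes. None was lower, and the median log2 ratio was 0.33. *Pnpla2* had a ratio of 2.42 (1.63 to 3.60), but of 0.916 without the barcodes holding 3 or more UMIs of other cell types. *Lpl*, lipoprotein lipase, had 8 and 65 UMIs, of which 43 lay in 1 Adipo delta/delta barcode, and it read 100.1 and 1265 CPM in the other kept barcodes. *G0s2*, which encodes an inhibitor of ATGL, read 887 CPM (831 to 946) in the control and 1199 CPM (1102 to 1301) in the Adipo delta/delta library, a ratio of 1.35 (1.22 to 1.50), against 11.1 and 10.3 CPM in the other barcodes. *Dgat1*, which makes triglyceride, and *Fabp5*, a fatty acid carrier, read 179 and 175 CPM and 179.8 and 192 CPM. Their ratios were 0.981 (0.748 to 1.28) and 1.07 (0.824 to 1.38), so that both intervals include 1.

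Further genes with high ratios were those of MHC class II and *Retnla*, a resistin-like protein of alternatively activated macrophages. *H2-Aa*, *H2-Ab1*, *H2-Eb1* and the invariant chain *Cd74* had 67 and 123 UMIs, 61 and 118 UMIs, 39 and 99 UMIs and 162 and 228 UMIs, ratios of 4.06, 4.28, 5.61 and 3.11. Without the barcodes holding 3 or more UMIs of other cell types, a list that includes *H2-Ab1* and *Cd74*, the ratios were 3.07, 5.34, 9.97 and 2.51. That step takes out the barcodes with most UMIs of *H2-Ab1* and *Cd74*, and its ratios were computed without a minimum of UMIs left. These ratios therefore cannot show whether the difference holds without mixed barcodes. As a mean of each barcode's own CPM the ratios were 1.72, 1.31, 2.34 and 1.02, so that *H2-Aa*, *H2-Ab1* and *Cd74* were no longer past 2-fold. Of the Adipo delta/delta UMIs, 8 barcodes held 73.2%, 76.3%, 62.6% and 71.9%, and the other kept barcodes read 1376 and 3201 CPM of *H2-Aa*. *Retnla* read 51.7 and 309 CPM in neutrophils, 599 and 2848 CPM in the other barcodes and 41.2 and 1027 CPM in B cells. At 500 UMIs it was found in 2.61% (1.14 to 5.09) of control and 13.4% (8.60 to 19.6) of Adipo delta/delta neutrophils and in 5.32% and 18% of B cells, so its share in neutrophils lay at or below the level read in cells that should lack it.

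Among the genes at least 2-fold lower, outside the granule genes, were features known to collect ribosomal RNA reads and mitochondrial sequence. *Gm42418* read 56706 and 27749 CPM in neutrophils and 103517 and 65054 CPM in the other barcodes, and *Lars2* read 3705 and 1518 CPM and 3762 and 1628 CPM. Both were thus lower in the Adipo delta/delta library in neutrophils and other barcodes alike. *mt-Nd4l*, a subunit of respiratory complex I, read 165 and 59.2 CPM in neutrophils but 123 and 152 CPM in the other barcodes. *Hist1h1e*, a linker histone, read 165 and 40.2 CPM, and *Adpgk*, an ADP-dependent glucokinase, 113 and 35.9 CPM, with 60.2% of the control UMIs of *Adpgk* in the 8 granule barcodes and a ratio of 0.649 without them. *Cstdc5*, a stefin whose counts may be shared with its copies, had 190 and 19 UMIs from 14 and 3 barcodes, and a ratio of 0.621 without the barcodes holding 3 or more UMIs of other cell types.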

How the data were processed

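CD45+ Dapi- cells sorted from collagenase-digested BAT were measured as 1 10x 3′ v3.1 library per condition. The deposited matrices hold UMI counts per gene and barcode, which the authors made with Cell Ranger 4.0.0 on mm10, per the file headers. They had total depths of 11327187 (control) and 12028844 UMIs (Adipo delta/delta).

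Kept were barcodes in which 200 or more genes were detected and mitochondrial UMIs stayed at or below 10%, and neutrophils were taken by the rule on *S100a8* and *S100a9*. B cells held at least 3 UMIs of *Cd79a*, *Cd79b* and *Ms4a1* and no *Cd3e*. Classical monocytes held at least 2 UMIs of *Ly6c2*, at least 2 of *Csf1r*, *Ccr2* and *Fcgr1*, and no *C1qa*, *C1qb*, *C1qc*, *Cd3e* or *Cd79a*. UMIs were summed per library and scaled to CPM, with no count model, since there was 1 library per condition. Genes with at least 50 neutrophil UMIs were described, and a ratio of at least 2 or at most 0.5 counted as past 2-fold. Poisson, Clopper-Pearson and conditional binomial intervals at 95% cover counting error only. Barcodes were thinned to 500 UMIs for shares, and no neutrophil or B cell was shallower. No doublet caller was run. The ratio of summed counts, its interval and the 2-fold rule were tried on simulated sums, drawn independently for each gene. The choice of barcodes, the thinning and transcripts clustered in few barcodes were not simulated.

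Named were genes of the rule, list members past 2-fold or among the 4 of highest level in their list, the 12 highest and 12 lowest ratios at 100 UMIs or more, the 10 highest levels, the 15 highest excesses over other barcodes, and markers. *Anxa3*, *Cebpe*, *Gbp2*, *Mmp8*, *Ncf4* and *Mki67* and the genes at 0 were named after their values were seen. A few list members are not reported here by name. The members and lists were chosen with earlier results of these data known. Alternatives changed the limits on barcodes, the scaling, the averaging and the minimum count. Gene positions are from GENCODE vM21 (GRCm38). Python 3.11.15, NumPy 2.4.6, SciPy 1.17.1, pandas 2.3.3 and Matplotlib 3.10.9 were used.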

Additional observations from a re-analysis of the deposited data

Results flagged for a closer look

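The mitochondrial share of UMIs differed between the libraries in opposite directions. In neutrophils the pooled share was 0.468 times that of the control in the Adipo delta/delta library (2.31% and 1.08%), and in the other kept barcodes it was 1.37 times that of the control (2.04% and 2.81%). The difference between these ratios was not tested, and there was 1 library per condition. Among the barcodes left out for more than 10% mitochondrial UMIs, 57 in the control and 8 in the Adipo delta/delta library had the neutrophil pattern. They made up 15.7% (12.1 to 19.9) of 363 control and 4.65% (2.03 to 8.96) of 172 Adipo delta/delta barcodes with that pattern. They entered no comparison except the alternative without a mitochondrial limit. That alternative had 362 control and 172 Adipo delta/delta neutrophils, and the ratio of shares was 0.517 (0.429 to 0.621).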

How the results depend on the processing

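No paired analysis was possible because there was 1 library per condition. The ratio of neutrophil shares went the other way, to 1.17, with the mitochondrial limit of 2%, where 170 control neutrophils remained, the Adipo delta/delta share was 15.2% and 24 genes were lower. Without barcodes with 3 or more UMIs of other cell types, the shares were 10.0% and 4.27% (86 neutrophils in the Adipo delta/delta library), their ratio 0.425, 58 genes were higher, 1 specific granule gene was lower, and *Pnpla2* and *Lta4h* turned to 0.916 and 1.07. That setting also took out most of the control barcodes rich in *Ltf*, *Camp* and *Ngp*. With C1q-rich barcodes out of the denominator the control share was 14.1%, the Adipo delta/delta share 10.0% and their ratio 0.713. Scaling without genes of the rule, mitochondrial and ribosomal protein genes gave 79 higher genes, and also without ribosomal RNA features 62 higher and 64 lower. Scaling to a median of 0 gave 54 and 67. Genes with at least 20 UMIs gave 361 higher and 130 lower, those with at least 200 UMIs 20 and 21, with 3 interferon-stimulated genes, and a fold of 1.5 gave 494 and 101, by construction of the thresholds. Without barcodes with 5 or more *Ltf*, *Camp* and *Ngp* UMIs, 0 specific granule genes were lower, and *Serpinb1a* and *Cybb* turned to 1.27 and 1.21. The value of *Camp* was then 4.06, but with 1 and 2 UMIs left it is not a readable ratio. Where the cause of a change is not given, the cause was not tested. Over the 51 named genes past 2-fold, 582 of 661 values under 13 settings stayed within the counting interval, 74 moved and 5 went the other way, that of *Camp* included. The granule-free recount, the ribosomal RNA scaling and the removal of the mitochondrial limit were chosen after seeing the data. Depth limits genes under 50 UMIs.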
